A study of Rattus norvegicus with 6 samples.

Results

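The enzymes that cut and trim peptide hormones out of their precursors were followed by RNA-seq in a rat β-cell model of Prader-Willi syndrome (PWS). The 9 genes Pcsk1, Pcsk2, Cpe, Cpd, Pam, Furin, Pcsk6, Pcsk7 and Qpct were chosen by symbol for their known role in precursor processing, and each matched 1 of the 32900 features of the deposited count table. All samples were lines of INS-1(832/13)::mCherry cells, a β-cell line from a rat insulinoma. Beside the rat insulin genes, these cells hold a human insulin transgene and a mouse Ins2 transgene tagged with mCherry. The 3 control lines, 5-9, 2 and 16, carry a deletion of the imprinted PWS domain on the silent maternal allele. The 3 PWS lines, 3, 19-1 and 19-4, carry that maternal deletion and a second one on the active paternal allele. All 6 were grown in 7.5 mM glucose, and 1 library of ribosomal RNA-depleted total RNA was made per line. Line 5-9 is the parent of the other lines. The PWS group holds 2 separately derived clones, because lines 19-1 and 19-4 were both subcloned from a line 19, and p-values measure the spread between clonal lines.

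Peptide hormones are made as long precursors that enter the secretory pathway and are cut at pairs of basic residues by the subtilisin-like proprotein convertases. In β-cells PC1/3 (Pcsk1) and PC2 (Pcsk2) act on proinsulin in secretory granules, carboxypeptidase E (Cpe) then trims the exposed basic residues, and some peptides, such as amylin (Iapp), are amidated at their C terminus by Pam. Furin, Pcsk7, Pcsk6 and carboxypeptidase D (Cpd) belong to the more widely expressed set that works in the trans-Golgi network or at the cell surface, and glutaminyl cyclase (Qpct) forms pyroglutamate at the N terminus of some peptides.

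The start regions of 4 of these genes are shown because 3 of them, Pcsk2, Cpe and Pam, share the core of a cyclic AMP response element, and the fourth, Qpct, is the member with the largest difference between the groups. Each is 300 bases long, from 250 bases before to 50 after the annotated gene start, from RefSeq on the rat build GRCr8, on the strand of the gene. Such regions were matched by symbol for 6 of the 9 genes, these 4 with Pcsk6 and Pcsk7, and those of Pcsk1, Cpd and Furin were not analysed here. The regions are chr3:151333688-151333987 on the plus strand for Pcsk2, chr16:29796457-29796756 on the plus strand for Cpe, chr9:105570118-105570417 on the plus strand for Pam, and chr6:21748846-21749145 on the minus strand for Qpct. Capitals mark the core TGACG read on either strand.
Pcsk2: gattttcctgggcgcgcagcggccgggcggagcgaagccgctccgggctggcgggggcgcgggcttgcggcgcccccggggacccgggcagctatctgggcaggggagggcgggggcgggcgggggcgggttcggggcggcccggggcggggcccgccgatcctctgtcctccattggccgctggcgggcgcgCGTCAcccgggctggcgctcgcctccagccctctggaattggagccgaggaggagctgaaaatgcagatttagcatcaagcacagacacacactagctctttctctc
Cpe: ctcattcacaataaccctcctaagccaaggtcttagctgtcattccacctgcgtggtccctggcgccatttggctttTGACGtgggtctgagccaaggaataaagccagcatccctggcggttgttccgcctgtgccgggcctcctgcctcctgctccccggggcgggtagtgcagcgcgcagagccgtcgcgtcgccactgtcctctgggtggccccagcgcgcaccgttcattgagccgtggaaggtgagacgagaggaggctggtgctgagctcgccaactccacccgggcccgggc
Pam: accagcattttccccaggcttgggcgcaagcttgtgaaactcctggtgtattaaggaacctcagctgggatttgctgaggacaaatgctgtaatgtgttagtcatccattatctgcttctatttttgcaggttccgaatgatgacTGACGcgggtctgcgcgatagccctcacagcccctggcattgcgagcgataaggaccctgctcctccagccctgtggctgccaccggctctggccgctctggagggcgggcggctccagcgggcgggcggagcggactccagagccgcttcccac
Qpct: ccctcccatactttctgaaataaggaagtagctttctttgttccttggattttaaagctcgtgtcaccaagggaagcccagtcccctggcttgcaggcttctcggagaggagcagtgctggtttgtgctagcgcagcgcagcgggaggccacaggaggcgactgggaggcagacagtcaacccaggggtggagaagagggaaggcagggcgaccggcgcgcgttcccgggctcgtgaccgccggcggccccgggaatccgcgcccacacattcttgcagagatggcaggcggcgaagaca

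The core lay 57 bases before the start of Pcsk2, 173 before that of Cpe and 105 before that of Pam, and was in 3 of the 6 regions. It was in 22.0% of 27457 rat start regions of the same length. At Cpe the core was part of TGACGTGG, an element bound by factors of the unfolded protein response, which 0.637% of the start regions held. The full palindrome TGACGTCA (1.91% of regions), the E-box CACGTG (6.65%) and TATAAA (14.3%) were in 0 of the 6, and the GC box GGGCGG was in 4 of 6 against 34.9% of all regions. Both strands were searched, the motifs were chosen after the sequences had been seen, and a match describes the letters only.

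The values below are reads divided by the DESeq2 size factor of the library, called normalized counts. Per line, 32119377 to 36084261 reads were counted in the control group and 26016478 to 33888835 in the PWS group, with a read counted at each feature to which it aligned. The targeted domain was checked first, and Snurf, one of its imprinted genes, was at 3160 to 3992 normalized counts in the control lines and at 0 to 3.64 in the PWS lines. Of 12 β-cell markers 11 had a row and 10 exceeded 3 reads in each of the 6 lines. Their summed level was 490700 to 569947 in the control lines and 259829 to 462452 in the PWS lines, the low end being line 19-4. Ins1 and Iapp made up most of this sum, at 133488 and 97752 in line 19-4, while the β-cell transcription factors Pdx1 (3390 to 3885 against 3134 to 3524), Neurod1 (2977 to 3454 against 2700 to 3219) and Nkx2-2 (741 to 849 against 717 to 871) overlapped between the groups. The part of the hormone difference in the results was not tested. The α-cell hormone Gcg was at 0 to 19.0 in the control lines and was higher in line 19-4 than in any other line. The δ-cell hormone Sst had no read in any line, and the acinar list summed to at most 2.05.

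None of the 9 processing enzymes passed the test between PWS and control lines. limma on log2(normalized count + 1) called 0 of 9 at an adjusted p-value of 0.05, where it called 0.257% of the 15579 genes tested. At an unadjusted p-value under 0.05 there was 1 member, Qpct, lower in the PWS lines. That threshold was passed by 11.3% of all genes, and by 5.35% in the direction of lower in PWS. edgeR and DESeq2 also called 0 of 9 (0.205% and 1.46% of all genes) and had the same 1 member at an unadjusted p-value under 0.05. The control and PWS lines overlapped for each of the 9 genes, while they did not overlap for 17.4% of all genes. The members' log2 fold changes had a median of -0.05, with 7 below 0 and 2 above, beside a median of -0.003 over all genes tested. In bulk RNA, fewer cells with a transcript and less transcript per cell cannot be told apart.

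**Figure D1:**
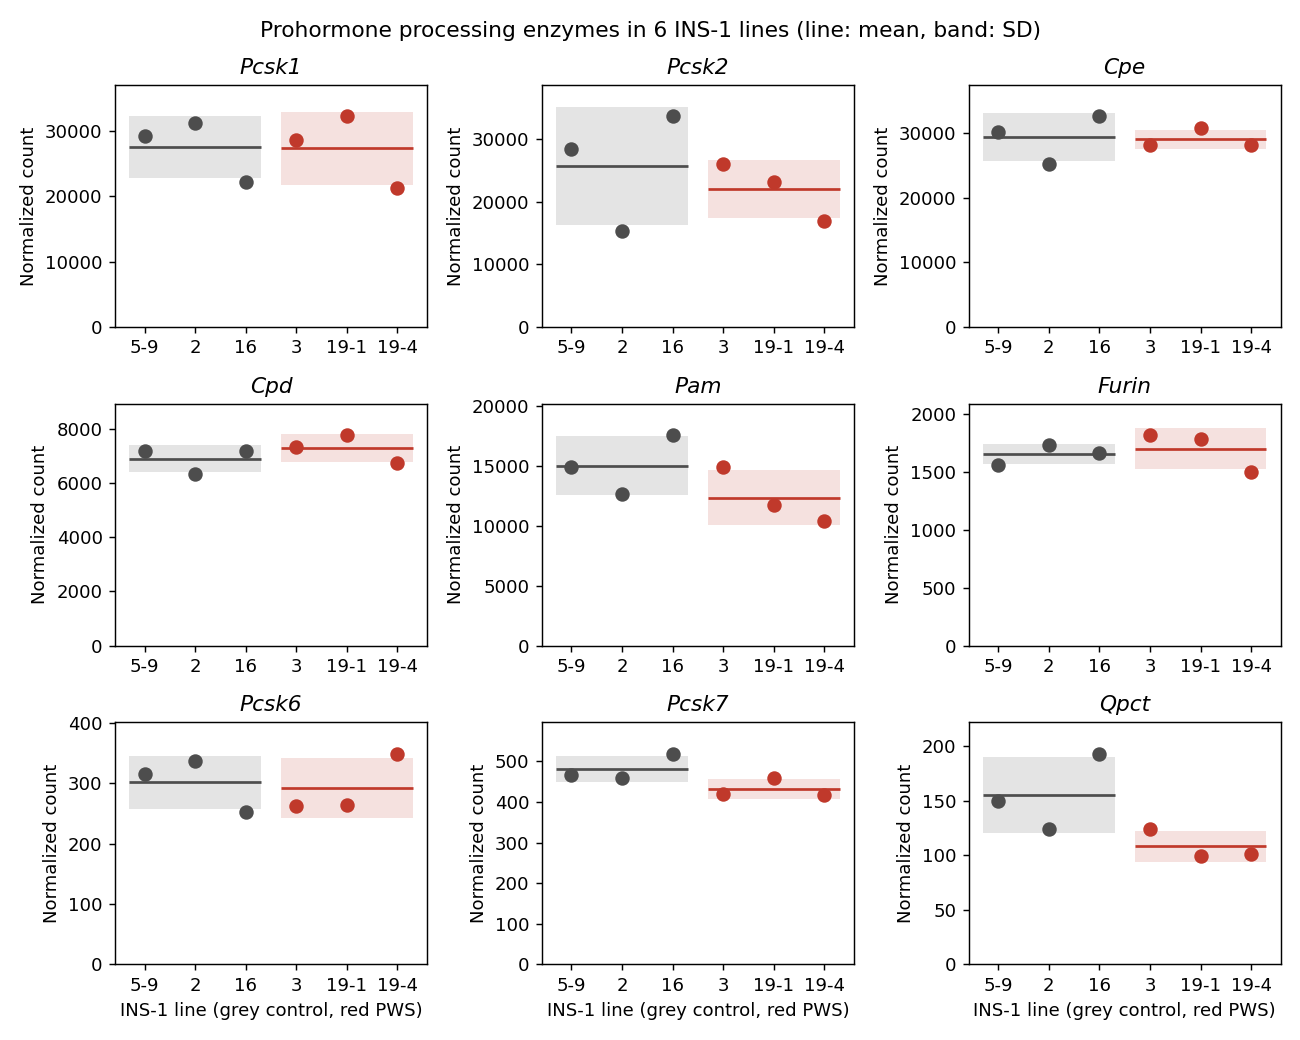
Normalized counts of the 9 processing enzymes (vertical axis, from 0) in each INS-1 line (horizontal axis), control lines in grey and PWS lines in red. Points are single libraries, lines are group means and bands are 1 SD (n = 3). The groups overlap in all 9 panels, and Pcsk2 spans the widest range, from 15286 in line 2 to 33604 in line 16.

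Pcsk1 encodes PC1/3, which makes the first cuts in proinsulin. Its normalized counts were 29310, 31202 and 22142 in the control lines 5-9, 2 and 16, and 28568, 32226 and 21277 in the PWS lines 3, 19-1 and 19-4. Each group held 1 low line, 16 and 19-4, and the line with the highest value and the line with the lowest both belonged to the PWS group. The means were 27551 ± 4779 (SD, n = 3) and 27357 ± 5574 (SD, n = 3), a log2 fold change of -0.02 (SE 0.18, 95% interval -0.42 to 0.39, limma adjusted p = 0.983). In percent of the control level the interval runs from -25.3% to 30.9%.

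Most reads counted at Pcsk1 were also counted elsewhere. Between 86.7% and 87.8% of them per line were shared with a second feature, AABR07024139.1 (ENSRNOG00000053037), beside Pcsk1 (ENSRNOG00000011107). The shared reads numbered 18686 to 29683 at Pcsk1, and in no line did the 2 features differ by more than 7 of them. AABR07024139.1 had 3 to 6 reads of its own, and Pcsk1 had 2858 to 4309. With shared reads left out, Pcsk1 stood at 3675, 3949 and 2949 normalized counts in the control lines and 3556, 4158 and 2607 in the PWS lines. The order of the lines was the same on these reads, and the log2 fold change was -0.05 (SE 0.17, limma adjusted p = 0.940). RSEM, which divides shared reads between features, gave Pcsk1 17179 to 26382 and AABR07024139.1 2137 to 3502, with a log2 fold change of -0.03 for Pcsk1 (limma adjusted p = 0.967). The level of Pcsk1 therefore depends on the counting, whereas its difference between the groups stayed between -0.05 and -0.02. Whether the feature overlaps Pcsk1 or is a copy of part of it was not determined. It was looked for after the low share of unique reads, 12.7%, had been seen. The other 8 members had 99.5% to 100% unique reads.

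**Figure D2:**
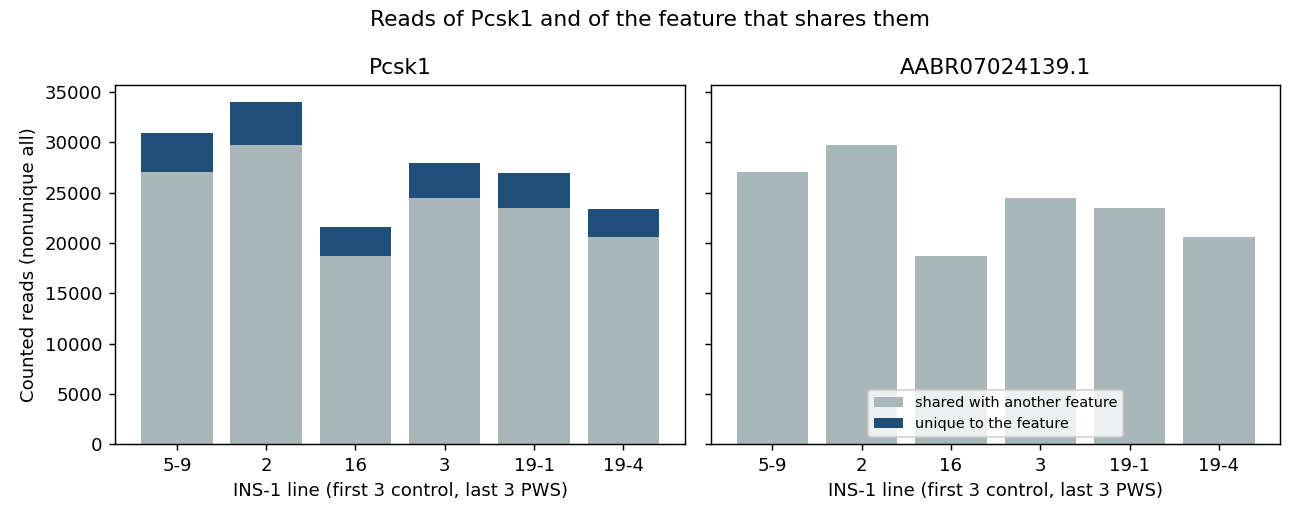
Reads counted at Pcsk1 (left) and at AABR07024139.1 (right) in each line (horizontal axis; vertical axis, reads from 0), split into reads shared with another feature (grey) and reads unique to the feature (blue). The grey parts of the 2 panels match line by line, and the blue part is visible at Pcsk1 only, where it is 2858 to 4309 reads against 3 to 6 at AABR07024139.1.

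Pcsk2 (ENSRNOG00000005438) encodes PC2, the convertase that also makes glucagon in α-cells. It was at 28335, 15286 and 33604 normalized counts in lines 5-9, 2 and 16, and at 25960, 23193 and 16914 in lines 3, 19-1 and 19-4. The 3 PWS lines all fell inside the range set by control lines 2 and 16, which differed 2.20-fold, against 1.53-fold among the PWS lines. The means were 25742 ± 9430 and 22022 ± 4635 (SD, n = 3 each), a log2 fold change of -0.17 (SE 0.28, 95% interval -0.81 to 0.47, limma adjusted p = 0.863). Single lines set its sign, which turned to 0.06 without line 16 and to 0.01 without line 19-4, and was -0.51 without line 2. Its SD of log2 values over the 6 lines, 0.439, was the largest of the 9 enzymes, which ranged from 0.103 for Cpd upward, beside a median of 0.163 over all genes tested. Scg5, which encodes 7B2, the chaperone that proPC2 needs to mature, was at 16512, 12497 and 14892 in the control lines and 16920, 14489 and 14868 in the PWS lines. Line 2 was lowest for both genes, but Scg5 did not follow Pcsk2 in line 16, and its log2 fold change was 0.08 (SE 0.11, limma adjusted p = 0.831).

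Cpe and Cpd trim the basic residues that the convertases leave behind, Cpe in granules and Cpd mainly in the trans-Golgi network. Cpe (ENSRNOG00000043387) was at 30212, 25235 and 32546 normalized counts in lines 5-9, 2 and 16 and at 28144, 30769 and 28073 in lines 3, 19-1 and 19-4. The PWS lines lay within the control range, with means of 29331 ± 3735 and 28995 ± 1537 (SD, n = 3 each) for control and PWS and a log2 fold change of -0.01 (SE 0.11, limma adjusted p = 0.982). Its 95% interval in percent, -16.2% to 17.7%, was among the narrower ones. Cpd (ENSRNOG00000003873) was at 7173, 6325 and 7200 in the control lines and at 7345, 7768 and 6744 in the PWS lines. Lines 3 and 19-1 were the highest and line 19-4 was between the control lines, with a log2 fold change of 0.08 (SE 0.08, 95% interval -0.11 to 0.27, limma adjusted p = 0.763) that was 0.017 without line 2 and 0.13 without line 19-4.

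Pam (ENSRNOG00000033280), the amidating monooxygenase, had the second largest difference. It was at 14912, 12628 and 17584 normalized counts in lines 5-9, 2 and 16 and at 14905, 11783 and 10384 in lines 3, 19-1 and 19-4. The 2 lowest values belonged to the subclones 19-1 and 19-4, whereas PWS line 3 was within 0.001 log2 units of the parent 5-9. The means were 15041 ± 2480 and 12357 ± 2315 (SD, n = 3 each), a log2 fold change of -0.29 (SE 0.16, 95% interval -0.64 to 0.07, limma adjusted p = 0.534). It ranged from -0.43 without line 3 to -0.17 without line 16 or 19-4, and was -0.21 with lines 19-1 and 19-4 averaged.

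Furin, Pcsk6 and Pcsk7, the convertases outside the regulated granule route, differed less between the groups than lines did within a group. Furin (ENSRNOG00000011352) was at 1560, 1732 and 1662 normalized counts in the control lines 5-9, 2 and 16 and at 1817, 1786 and 1502 in the PWS lines 3, 19-1 and 19-4. The PWS lines held both its highest and its lowest value, and the log2 fold change was 0.04 (SE 0.09, 95% interval -0.17 to 0.25, limma adjusted p = 0.911). Pcsk6 (ENSRNOG00000011526), which encodes PACE4, was at 315, 338 and 253 in the control lines and at 263, 264 and 349 in the PWS lines. Line 19-4, the lowest line for 4 of the 9 members, was its highest, and the log2 fold change was -0.05 (SE 0.16, 95% interval -0.41 to 0.31, limma adjusted p = 0.939). Pcsk7 (ENSRNOG00000017478), which encodes PC7, was at 466, 459 and 519 in the control lines and at 420, 459 and 417 in the PWS lines. Lines 2 and 19-1 were level and kept the groups from separating, with a log2 fold change of -0.15 (SE 0.09, 95% interval -0.37 to 0.06, limma adjusted p = 0.575).

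Qpct (ENSRNOG00000005705), glutaminyl cyclase, had the largest difference and the fewest reads, 83 to 188 per line. Its normalized counts were 150, 124 and 193 in lines 5-9, 2 and 16 and 125, 99.2 and 101 in PWS lines 3, 19-1 and 19-4. The groups overlapped only through control line 2 (123.9) and PWS line 3 (124.5), which were nearly equal. The means were 156 ± 34.9 and 108 ± 14.2 (SD, n = 3 each), a log2 fold change of -0.50 (SE 0.19, 95% interval -0.94 to -0.07). The unadjusted p-value was 0.0292 and the adjusted one 0.393 in limma, with adjusted values of 0.388 in edgeR and 0.361 in DESeq2. It was therefore not called. The counting error of a single library was 7.29% to 11.0% here, and the control lines spanned a 1.56-fold range. The log2 fold change was -0.34 without line 16, -0.66 without line 2 and -0.45 with lines 19-1 and 19-4 averaged. Qpctl, the Golgi paralogue of Qpct, was at 558, 582 and 575 in the control lines and 584, 497 and 430 in the PWS lines (log2 fold change -0.19, SE 0.12, limma adjusted p = 0.574; -0.085 without line 19-4 and -0.31 without line 3).

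Among the 9 enzymes the lines within a group differed by more than the group means did, for 9 of 9. The share of all genes for which this holds was not determined. Over all genes tested, the median absolute log2 fold change was 0.119 and the median SD over the 6 lines 0.163. Line 16 was the highest of the 6 lines for 5 members, line 19-4 the lowest for 4 and line 2 the lowest for 3. The shares of all genes with these extreme lines were not determined either. In 6 members (Pcsk2, Cpe, Cpd, Pam, Pcsk7 and Qpct) the control lines stood in the order 2, 5-9, 16 from low to high, an order noticed in the values and found in 21.4% of all genes tested. Pcsk1 and Pcsk6 stood in the opposite order, line 16 lowest and line 2 highest. Against their parent 5-9, the members differed by a median of 0.182 log2 units in line 2, 0.238 in line 16, 0.126 in line 3, 0.195 in line 19-1 and 0.159 in line 19-4. The same medians over all genes were 0.174, 0.122, 0.124, 0.181 and 0.165, so control line 16 was the one line in which the members stood further from the parent than genes in general did by more than 0.1. With 1 library per line, how far a line would vary on repetition was not measured, and neighbours in these orders were not tested.

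**Figure D3:**
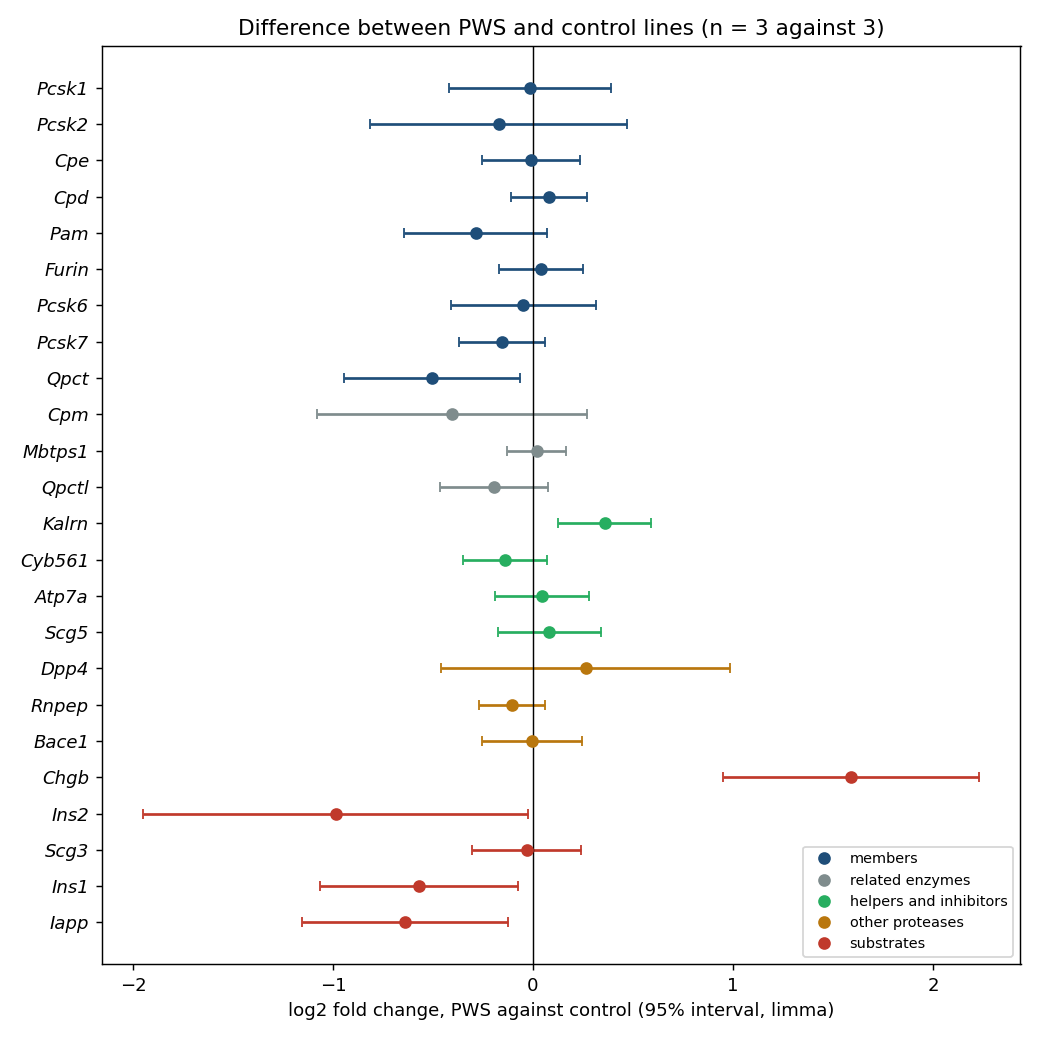
log2 fold changes of PWS against control lines (horizontal axis; points, with 95% limma intervals as bars) for the 9 enzymes in blue and for genes named from the lists of related enzymes, helpers, other proteases and precursors; the vertical line is 0. The intervals of 8 of the 9 enzymes hold 0, Qpct being the exception.

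Balances within a line were compared next, since a ratio of 2 transcripts in 1 library does not depend on its scaling. The ratios include the lengths of the 2 transcripts and are read between lines only. Of 9 ratios tested by a two-sided exact permutation test, which cannot go below 0.1 with 3 against 3 lines, none passed 0.05. Pcsk1 relative to Pcsk2 was 103%, 204% and 65.9% in control lines 5-9, 2 and 16, and 110%, 139% and 126% in PWS lines 3, 19-1 and 19-4. The control lines spread 3.10-fold and the PWS lines 1.26-fold, with the latter inside the range of the former. On the log2 scale the means were 0.16 ± 0.82 and 0.31 ± 0.17 (SD, n = 3 each), an exact p of 0.7. The ratios Scg5 to Pcsk2, Cpe to Cpd, Qpct to Qpctl and Furin to Pcsk7 also overlapped, with differences of 0.25, -0.09, -0.31 and 0.19 log2 units and exact p-values of 0.4, 0.2, 0.3 and 0.2. With lines left out in turn, these differences ran from 0.04 to 0.48, -0.13 to -0.04, -0.48 to -0.15 and 0.12 to 0.26.

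The granule enzymes were then set against their precursors. Ins1 was at 256090, 262628 and 282807 normalized counts in the control lines and 247273, 175597 and 133488 in the PWS lines, and Iapp at 210391, 194173 and 246567 against 181227, 150687 and 97752. Both were lower in every PWS line than in any control line, with log2 fold changes of -0.57 (SE 0.22) and -0.64 (SE 0.22), and neither passed the test (adjusted p = 0.389 and 0.364 in limma, 0.115 and 0.0651 in DESeq2). Without line 19-4 they were -0.36 and -0.39. Cpe per Ins1 and Ins2 together was 11.6%, 9.53% and 11.2% in control lines 5-9, 2 and 16, and 11.3%, 17.2% and 20.8% in PWS lines 3, 19-1 and 19-4. Only 19-1 and 19-4, the subclones of 1 line, stood above the control lines, and line 3 was level with its parent. The same held for Pcsk1 per insulin, at 11.2%, 11.8% and 7.62% against 11.4%, 18.0% and 15.8%, and for Pcsk2 per insulin, at 10.8%, 5.77% and 11.6% against 10.4%, 13.0% and 12.5%. The differences were 0.57, 0.56 and 0.41 log2 units for Cpe, Pcsk1 and Pcsk2, with exact p-values of 0.2, 0.2 and 0.3. They rested in part on single lines, being 0.38 for Cpe without line 19-4, 0.37 for Pcsk1 without line 16 and 0.09 for Pcsk2 without line 2. Cpe, Pcsk1 and Pcsk2 themselves had log2 fold changes of -0.01, -0.02 and -0.17, so none was higher in the PWS lines on average. Pam relative to Iapp, whose peptide is amidated, was 7.09%, 6.50% and 7.13% in the control lines and 8.23%, 7.82% and 10.6% in the PWS lines. This was the one ratio of the 9 whose groups did not overlap, 0.35 log2 units higher in the PWS lines (-3.86 ± 0.07 against -3.51 ± 0.24, SD, n = 3 each). Its exact p of 0.1 is the smallest the design allows, and the value adjusted over the 9 ratios was 0.36. Without line 19-4 the difference was 0.22. Pam itself had a log2 fold change of -0.29, against -0.64 for Iapp, so neither transcript was higher in the PWS lines on average.

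**Figure D4:**
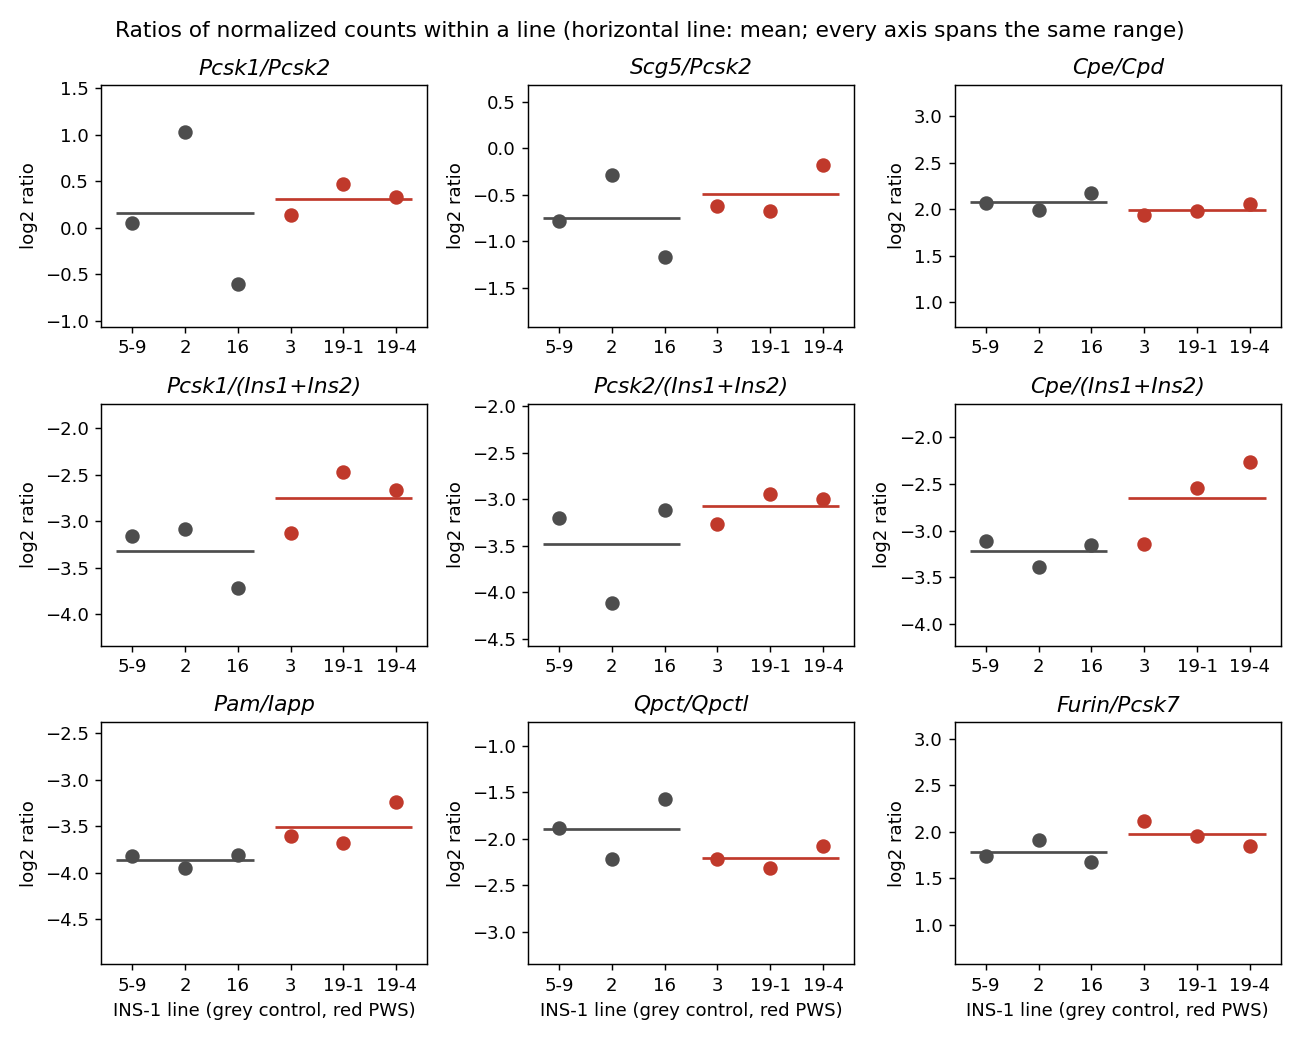
log2 ratios of normalized counts within each line (vertical axis, the same span in every panel) for 9 pairs, control lines in grey and PWS lines in red (horizontal axis, single libraries), with the mean of each group as a line. Pam/Iapp is the one panel without overlap; in the 3 panels against insulin, line 3 sits among the control lines.

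Relatives and partners of the enzymes were taken from lists by known function. Of 11 related convertases, carboxypeptidases and cyclases 9 were tested, and 0 were called by limma, edgeR or DESeq2 (0.257%, 0.205% and 1.46% of all genes). At an unadjusted limma p-value under 0.05 there were 2, both lower in the PWS lines. That threshold was passed by 11.3% of all genes, and by 5.35% as lower in PWS. The median log2 fold change of the 9 was -0.19. One of the 2 was Pcsk4, the germ-cell convertase, named after its values were seen. It was at 141, 162 and 150 normalized counts in the control lines and 129, 108 and 125 in the PWS lines, without overlap (log2 fold change -0.33, SE 0.14, limma adjusted p = 0.429). Cpm, a membrane carboxypeptidase, had a log2 fold change of -0.41 (limma adjusted p = 0.645) at 13.2 to 26.7 normalized counts, and Mbtps1, the site-1 protease, one of 0.02 (limma adjusted p = 0.946) with 61.7% unique reads.

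Of 5 helpers and inhibitors 4 had a row under their symbol and were tested, and the inhibitor Pcsk1n was not analysed here. limma, edgeR and DESeq2 called 0 of 4 (0.257%, 0.205% and 1.46% of all genes), and 1 had an unadjusted limma p-value under 0.05 (11.3% of all genes). That was Kalrn, whose product kalirin binds the cytosolic tail of Pam, at 2789, 2357 and 2649 normalized counts in the control lines and 3362, 3713 and 2946 in the PWS lines. Every PWS line exceeded every control line, at a log2 fold change of 0.36 (SE 0.10, adjusted p = 0.285 in limma and 0.078 in DESeq2). Cyb561, the granule cytochrome that supplies Pam with electrons, had a log2 fold change of -0.14 (limma adjusted p = 0.609), and Atp7a, the copper transporter, one of 0.05 (limma adjusted p = 0.907, 77.9% unique reads). Of 7 other peptide-processing proteases limma, edgeR and DESeq2 called 0, with 0 at an unadjusted p-value under 0.05 (11.3% of all genes in limma) and a median log2 fold change of -0.003. The furthest from 0 were Dpp4, which removes N-terminal dipeptides from incretins, at 0.26 (limma adjusted p = 0.797, 9.18 to 16.4 normalized counts per line; 1.16 with RSEM, and 0.13 to 0.46 with single lines left out), and Rnpep, an aminopeptidase for basic residues, at -0.10 (limma adjusted p = 0.628), and the nearest was the β-secretase Bace1 at -0.003 (limma adjusted p = 0.993).

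Of 12 precursors and granule proteins 10 were tested, Adcyap1 and Gal having 0 reads in all lines. limma and edgeR called 0 of 10 (0.257% and 0.205% of all genes) and DESeq2 called 2, Chgb and Npy (1.46% of all genes). An unadjusted limma p-value under 0.05 was reached by 1 higher in the PWS lines, Chgb, and by 4 lower, Ins1, Ins2, Iapp and Npy, and the groups did not overlap for Chgb, Ins1, Iapp and Npy. Of all genes, 11.3% passed that threshold (5.35% lower in PWS) and 17.4% did not overlap. The list was chosen with earlier results of these data known. Chgb, a granin of the granule matrix, was at 23244, 9355 and 12275 normalized counts in the control lines and 41825, 41729 and 41746 in the PWS lines, a log2 fold change of 1.59 (SE 0.28), with adjusted p-values of 0.124 in limma and 0.0271 in DESeq2. Without line 5-9, the highest of the control lines, limma called it (adjusted p = 0.0011). Npy, named after its values were seen, was at 579, 632 and 699 against 424, 476 and 434 (log2 fold change -0.52, adjusted p = 0.193 in limma and 0.0077 in DESeq2), with 0% unique reads, since every one was shared with another feature. Ins2 had a log2 fold change of -0.99 (SE 0.42, limma adjusted p = 0.432; -1.47 without line 2 and -0.60 without line 16) and Scg3, another granin, one of -0.03 (limma adjusted p = 0.948).

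For the most variable members, Pcsk2 and Qpct, the genes with the nearest profile over the 6 lines were sought among the 11721 genes that averaged 100 or more normalized counts. Likeness was the root mean square difference of log2 values centred on the mean of each gene, which is a description of 6 libraries. The nearest to Pcsk2 were Fam114a1 at 0.136, Itga4, an integrin subunit, at 0.139, and Camk4, a calcium-dependent kinase, at 0.144. Camk4 was at 639, 411 and 735 normalized counts in lines 5-9, 2 and 16, and at 612, 463 and 343 in lines 3, 19-1 and 19-4, with line 16 highest, like Pcsk2, but line 19-4 rather than line 2 lowest. The nearest to Qpct were Pdia6 at 0.0577, Hsp90b1 at 0.0645 and Tmem163, a zinc transporter, at 0.0785. Pdia6 is a protein disulfide isomerase and Hsp90b1 the Hsp90 of the endoplasmic reticulum. Pdia6 was at 11809, 10481 and 15430 in the control lines and 10797, 8101 and 7800 in the PWS lines, and Hsp90b1 at 75710, 67011 and 93291 against 64970, 52120 and 56288. As for Qpct, line 16 was the highest and the 2 subclones 19-1 and 19-4 the lowest. Genes chosen by likeness over these same values share such extremes by the choice itself, and shared regulation was not tested. The counting error of Qpct, 7.29% to 11.0% per library, limits how closely its own profile is known. The start region of Hsp90b1 held 2 copies of the ER stress response element (CCAAT and CCACG with 9 bases between, either strand), which 0.0765% of rat start regions hold, while those of Tmem163 and of Qpct, printed above, held 0. That of Pdia6 was not analysed here.

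**Figure D5:**
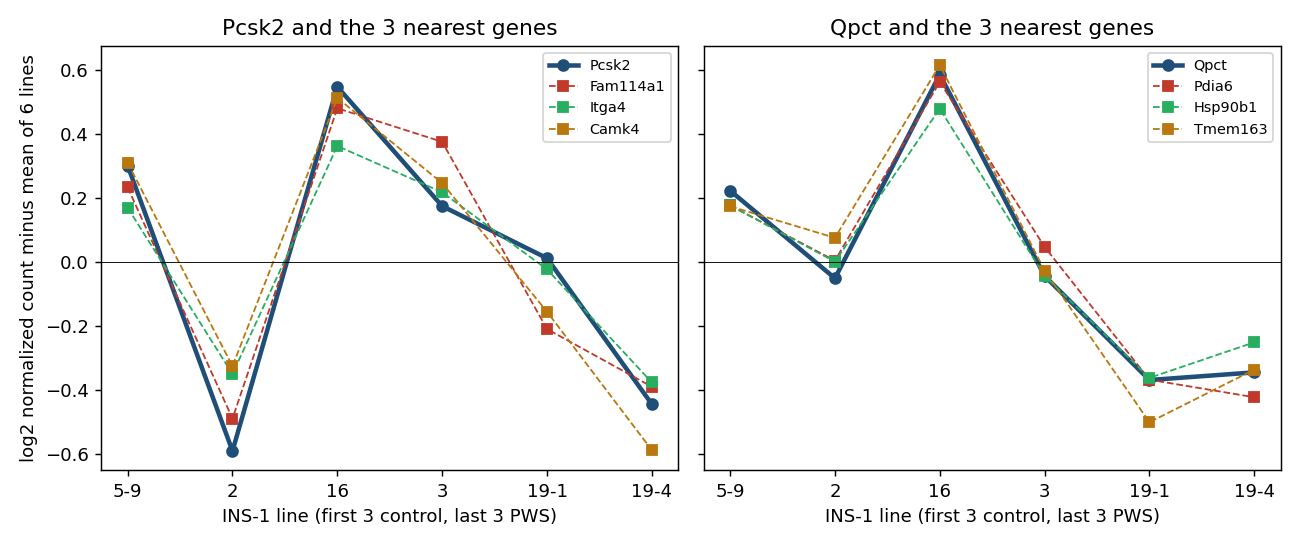
log2 normalized counts minus the mean of the 6 lines (vertical axis) by line (horizontal axis) for Pcsk2 (left) and Qpct (right), each with the 3 genes of nearest profile as dashed lines; points are single libraries. Qpct, Pdia6, Hsp90b1 and Tmem163 all peak in line 16 and are lowest in 19-1 and 19-4, with root mean square differences of 0.0577 to 0.0785. The 3 genes were picked for this likeness.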

How the data were processed

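Total RNA was sequenced from 3 control and 3 PWS INS-1 lines. The authors trimmed reads with cutadapt, aligned them with STAR 2.7.0e to the Ensembl rat genome with transgenes and custom features added, and counted them with HTSeq 0.11.2 (nonunique all or none) or RSEM 1.3.1. The values deposited are a signal, counts divided by DESeq2 size factors. Dividing each column of the HTSeq tables by its lowest value above 0 gave whole reads for 100% of such values (tolerance 0.001 reads). The authors' own fold changes and p-values, also in the tables, were not used.

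The nonunique all table was tested with limma 3.58.1 (R 4.3.3; trended eBayes) on log2 values after adding 1, over the 15579 genes averaging 5 or more normalized counts. P-values were adjusted by Benjamini-Hochberg and called under 0.05. edgeR 4.0.16 (quasi-likelihood) and DESeq2 1.42.0 were run on the recovered reads, and each was tested on simulated data. Ratios were compared by an exact permutation test. The alternatives were pseudocounts of 0.5 and 5, no or a stricter filter, TMM scaling, no trend, the other counting tables, each line left out, a replicate block, 19-1 and 19-4 averaged, and a threshold of 0.1. The members, lists and tests were chosen with earlier results of these data known. Every member was named. Of each list, the 2 genes with the largest and the 1 with the smallest absolute log2 fold change were named, with Scg5, Qpctl, Ins1, Ins2 and Iapp always. Some genes that the rule names are not reported here. Start regions came from RefSeq (GRCr8), matched by symbol for 6 of the 9 members. Counting errors cover counting only.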

Additional observations from a re-analysis of the deposited data

How the results depend on the processing

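The count of processing enzymes called was 0 under every alternative run, including a threshold of 0.1 and each line left out (0 to 0). Over 18 alternatives, 162 values of the 9 enzymes' log2 fold changes were recomputed. Of these 146 kept their direction and their side of the threshold and 16 changed sign, 14 of them on leaving out a line, and the smallest adjusted p-value was 0.337. Cpd, Pam, Pcsk7 and Qpct changed sign under none of them, though single lines moved their size. With lines 19-1 and 19-4 averaged, Pcsk1 was at 0.020 and Bace1 at 0.014. With RSEM, Cpe was at 0.0039 and Atp7a at -0.078, and with nonunique none counting Bace1 was at 0.0018. With lines left out in turn, log2 fold changes ran from -0.17 to 0.15 for Pcsk1, -0.51 to 0.059 for Pcsk2, -0.11 to 0.069 for Cpe, -0.010 to 0.13 for Furin, -0.18 to 0.037 for Pcsk6, -0.0021 to 0.057 for Mbtps1, -0.024 to 0.14 for Atp7a, -0.027 to 0.17 for Scg5, -0.083 to 0.095 for Bace1 and -0.13 to 0.067 for Scg3. With no change of sign they ran from 0.017 to 0.13 for Cpd, -0.43 to -0.17 for Pam, -0.20 to -0.10 for Pcsk7, -0.66 to -0.34 for Qpct, -0.31 to -0.085 for Qpctl, -0.64 to -0.21 for Cpm, -0.23 to -0.083 for Cyb561, -0.15 to -0.055 for Rnpep, 0.13 to 0.46 for Dpp4, -1.47 to -0.60 for Ins2, -0.80 to -0.36 for Ins1 and -0.83 to -0.39 for Iapp. The Pcsk1 to Pcsk2 ratio ran from -0.22, without line 16, to 0.59. Against insulin the ratios ran from 0.38 to 0.82 for Cpe, 0.37 to 0.75 for Pcsk1 and 0.09 to 0.59 for Pcsk2, and Pam to Iapp from 0.22 to 0.44. Dpp4 was at 1.16 with RSEM. Adjusted p-values in limma, edgeR and DESeq2 ranged from 0.354 to 0.678 for Qpct and from 0.337 to 0.797 for Pam. The cause of these shifts was not tested.

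Over all genes limma called 40, and a filter at a mean of 50 left 9, nonunique none counting 16 and RSEM 12, while DESeq2 called 228, with 106 higher against 1 higher in limma. The cause was not tested. With lines left out the count ran from 33 to 55. Same-numbered lines did not deviate together (correlations of 0.00345, 0.0467 and 0.00514), so the numbers do not pair them. With the replicate block 36 genes and 0 enzymes were called, and Qpct stayed at -0.50 (limma adjusted p = 0.394).

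With 3 lines a group, and 2 of the PWS lines subclones of 1 line, the interval of Pcsk2 (-0.81 to 0.47) is the widest of the 9. Most reads behind the interval of Pcsk1 (-0.42 to 0.39) were shared with a second feature, and without them it ran from -0.44 to 0.34. Qpct had 83 to 188 reads per line, a counting error of up to 11.0%, and how much of its spread that makes was not tested.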
